A study of Mus musculus with 12 samples.

Results

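The genes described here are 10 members of the immediate early response, read in RNA-seq counts of bone marrow cells from mice that differ in Tet2 and in the insulin gene Ins2. They are the AP-1 subunits Fos, Fosb, Jun, Junb and Jund, the transcription factors Egr1 and Klf6, the regulator Ier2, and the feedback inhibitors Dusp1 and Zfp36. They were chosen by symbol from the 31060 gene rows of the table, and all 10 passed the filter on low counts that left 15630 genes. The cells were the lineage-negative fraction, which is what remains of marrow once cells bearing markers of mature blood lineages are removed. All mice were C57BL/6. The libraries fell into 4 genotypes: Tet2+/-;Ins2Akita/+ (called double mutant here, after the label, n = 3), Ins2Akita/+ (n = 2), Tet2+/- (n = 3) and WT (n = 3). Tet2+/- mice have 1 disrupted copy of Tet2, whose product oxidises 5-methylcytosine in DNA. Ins2Akita/+ mice carry the dominant Akita allele, whose misfolded insulin injures the beta cells of the pancreas, so that blood glucose is high without a drug or diet. The labels give no age or sex, do not say how or in which exon the Tet2 allele was disrupted, and do not say whether a library came from 1 animal or a pool, so the p-values below measure the spread between these samples.

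Immediate early genes are transcribed within minutes of a signal, without new protein synthesis, because the factors that switch them on are already bound or waiting in the cell. FOS and JUN proteins pair through leucine zippers into AP-1, which binds DNA and sets the response of later genes. DUSP1, which removes phosphate from MAP kinases, and ZFP36, which marks AU-rich mRNAs for decay, belong to the same early wave and shut it down. In marrow these genes respond to cytokines and stress, and they are also known to respond to the handling of cells.

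Total counts ran from 14814409 to 22600405 per library, and the 10 genes together held 0.506% to 1.07% of them. Values are CPM, that is counts relative to the library's TMM-scaled total, and a level set against another gene is given per kilobase of exon (CPM per kb). Tet2 itself, which checks the labels, was at 66.5, 108 and 34.2 CPM in double-mutant libraries 1 to 3, 131 and 107 CPM in Ins2Akita/+ libraries, 19.0, 18.5 and 19.3 CPM in Tet2+/- libraries and 91.2, 128 and 45.1 CPM in WT libraries. The double-mutant libraries lay above the Tet2+/- libraries, although both labels state the same Tet2 genotype. The log2 difference was 1.88 (edgeR adjusted p = 0.140), and 1.70 (adjusted p = 0.0286) with the library number as a block. It was 2.22 (edgeR adjusted p = 0.00537) without the libraries numbered 3 and 1.90 (adjusted p = 0.00448) in DESeq2. For double mutant against WT it was -0.34 (edgeR adjusted p = 0.906). For Tet2+/- against WT it was -2.22 (edgeR adjusted p = 0.505), and -2.05 (adjusted p = 0.186) with the block. It was -2.55 (edgeR adjusted p = 0.0162) without the libraries numbered 3 and -2.21 (adjusted p = 0.00181) in DESeq2. Every direction below that involves the double-mutant or the Tet2+/- libraries rests on their labels. The libraries numbered 3 stood apart: mitochondrial genes took 9.76%, 4.46% and 3.43% of counts in number 3 of the double mutant, Tet2+/- and WT, against 1.36% to 1.94% in the other libraries. Markers of a maturing neutrophil (11 genes, none at 0 in any library) summed to 45092, 69479 and 60633 CPM in double-mutant libraries, 30087 and 15527 CPM in Ins2Akita/+ libraries, 25930, 28032 and 2929 CPM in Tet2+/- libraries and 22121, 22997 and 2084 CPM in WT libraries. Stem and early progenitor markers (9 genes) summed to 199 to 439 CPM, and no marker of the 9 lists for other blood lineages was at 0 in any library, T, B and red cell markers included. B lineage markers summed to 57.2 to 75.6 CPM in double-mutant libraries, 192 and 198 CPM in Ins2Akita/+ libraries, 180 to 394 CPM in Tet2+/- libraries and 153 to 219 CPM in WT libraries. In bulk RNA, more cells of a type and more RNA of a gene per cell cannot be told apart, so these differences in makeup stand beside every value below, and their part in them was not tested.

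The sequences below are promoters, 250 bases up to the RefSeq start of each gene on build GRCm38.p6, since immediate early genes are textbook targets of short elements close to the start: the cyclic AMP element TGACGTCA and its TGACG core, bound by CREB and ATF proteins, the AP-1 site TGANTCA, the CArG box, bound by serum response factor, and the TATA box, searched as TATAAA. Capitals mark a match, searched on both strands. The RefSeq table gave a promoter that could be read for 8 of the 10 genes. Fos lies at chr12:85473640-85473889 on the plus strand, Fosb at chr7:19310046-19310295, Dusp1 at chr17:26508473-26508722 and Zfp36 at chr7:28379229-28379478, all of the last 3 on the minus strand.
Fos: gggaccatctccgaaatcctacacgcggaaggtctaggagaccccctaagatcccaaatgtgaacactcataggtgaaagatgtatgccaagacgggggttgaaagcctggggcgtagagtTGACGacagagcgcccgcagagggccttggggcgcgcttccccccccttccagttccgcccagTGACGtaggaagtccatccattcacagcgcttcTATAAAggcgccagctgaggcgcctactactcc
Fosb: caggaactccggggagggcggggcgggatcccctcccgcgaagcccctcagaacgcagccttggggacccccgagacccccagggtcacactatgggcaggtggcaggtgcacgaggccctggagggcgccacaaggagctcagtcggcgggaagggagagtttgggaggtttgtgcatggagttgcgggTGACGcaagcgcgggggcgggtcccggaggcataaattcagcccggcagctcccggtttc
Dusp1: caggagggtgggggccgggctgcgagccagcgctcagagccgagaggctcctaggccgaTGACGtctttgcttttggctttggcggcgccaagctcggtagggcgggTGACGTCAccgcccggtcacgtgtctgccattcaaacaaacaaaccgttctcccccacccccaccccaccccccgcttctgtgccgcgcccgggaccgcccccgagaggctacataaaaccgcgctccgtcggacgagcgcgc
Zfp36: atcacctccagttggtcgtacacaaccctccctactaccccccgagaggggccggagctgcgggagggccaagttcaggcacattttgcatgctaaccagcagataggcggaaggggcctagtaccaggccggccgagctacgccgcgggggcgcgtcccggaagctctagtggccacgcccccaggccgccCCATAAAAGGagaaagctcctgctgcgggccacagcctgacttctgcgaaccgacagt
Fos held TGACG at 129 to 125 and at 66 to 62 bases before its start and TATAAA at 33 to 28. Fosb held TGACG at 60 to 56 bases before its start. Dusp1 held the full TGACGTCA at 143 to 136 bases, which contains a TGACG on each strand, and a further TGACG at 191 to 187. Zfp36 held a CArG box at 58 to 49 bases. Of the promoters not printed, Junb held TGACG at 106 to 102 bases, and Jun, Jund and Klf6 held none of these letters in this window. Among all 32851 promoters of this length, 17.8% held TGACG, 1.55% held TGACGTCA, 6.75% held TGANTCA, 1.47% held a CArG box and 12.4% held TATAAA. A match describes these letters only and is not a site shown to be bound. For some members the RefSeq start used here differs from the gene span given below. The Jund window ends at 70697738, while the Jund span starts at 70698949, so the lack of a match holds for that RefSeq start only. The Zfp36 and Dusp1 windows lie inside the spans given for those genes.

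Across the 11 libraries, each of the 10 genes had a higher group mean in the double mutant than in any other genotype, with a spread so wide in several of them that no single gene passed the test. Against WT, the fitted ratios of the double mutant ran from 1.14 (Jund) to 2.03 (Fos and Dusp1). The libraries numbered 3 set most of the spread. Within library numbers 1, 2 and 3 the double mutant was 1.70, 2.21 and 1.93 times WT for Jun and 1.67, 1.94 and 1.81 times for Egr1. Other genes were less steady and differed most in number 3, such as Dusp1 at 1.05, 1.37 and 2.84 times and Ier2 at 1.26, 1.28 and 2.47 times. With the library number as a block, Jun and Egr1 passed between double mutant and Tet2+/-, as did 4.50% of all genes. Neither passed in the same fit without the Ins2Akita/+ libraries, for which pairing by number was not shown.

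**Figure D1:**
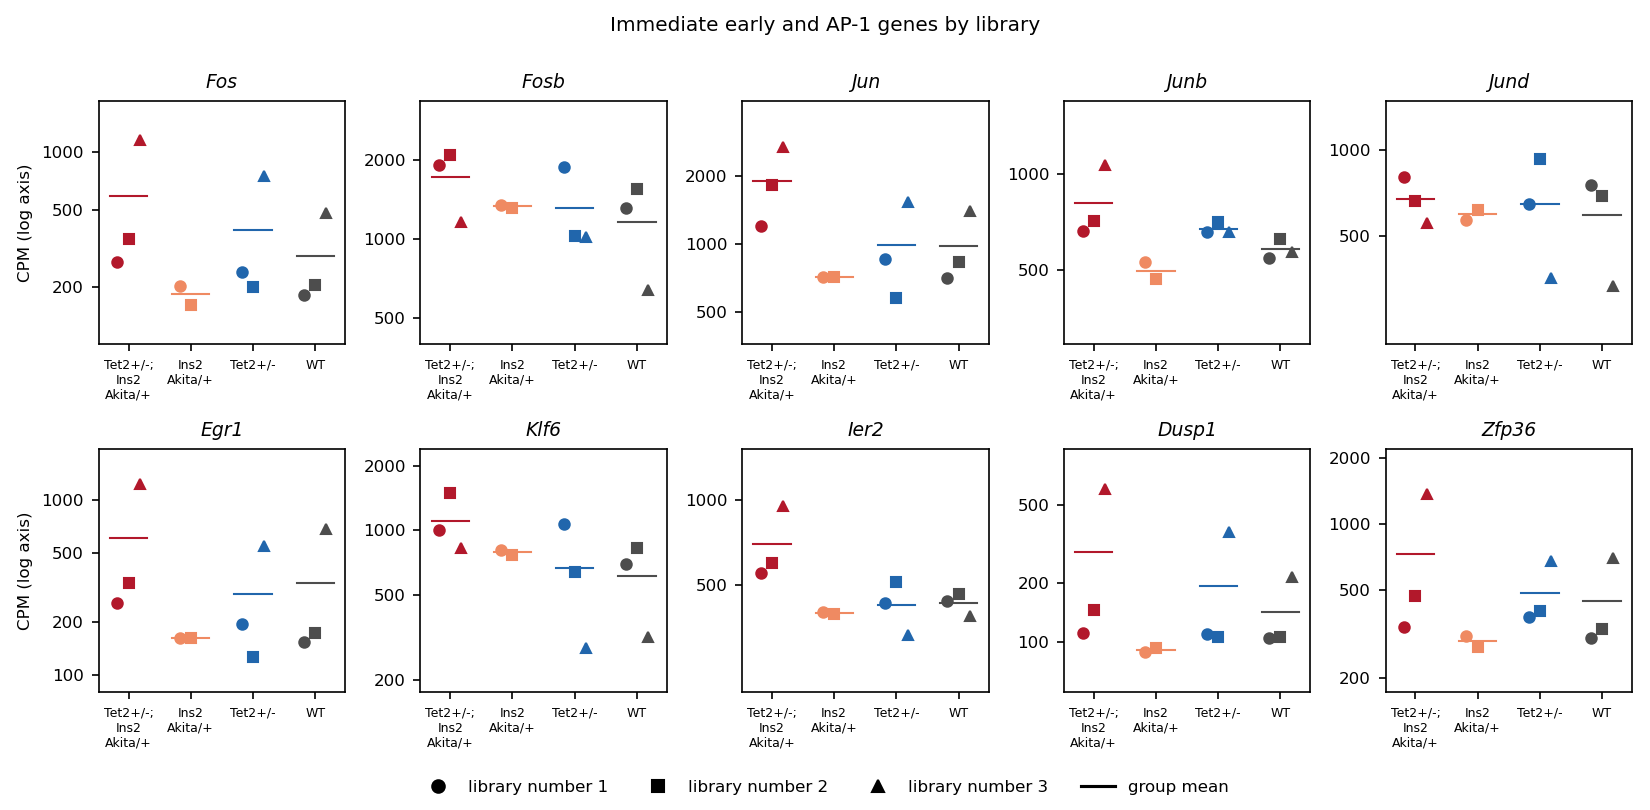
CPM of each of the 10 genes in each library on a log axis, with 1 panel per gene, genotypes along the x axis, marker shape for the library number and a line at the group mean. Jun ran from 1202 to 2689 CPM in double-mutant libraries and from 709 to 1395 CPM in WT libraries, and the triangles of number 3 lie high for Fos, Egr1, Dusp1 and Zfp36 and low for Fosb, Jund and Klf6.

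Of the FOS subunits, Fos (ENSMUSG00000021250.13, chromosome 12, 85473890 to 85477273, GRCm38, plus strand, 4 exon blocks) encodes the founding partner of JUN. It was at 268, 352 and 1145 CPM in double-mutant libraries, 204 and 163 CPM in Ins2Akita/+ libraries, 239, 199 and 748 CPM in Tet2+/- libraries and 183, 206 and 480 CPM in WT libraries. Number 3 was the highest library of each group that had one, and the double mutant overlapped WT and Tet2+/- but lay above both Ins2Akita/+ libraries. The log2 difference was 1.02 for double mutant against WT (SE 0.67, edgeR adjusted p = 0.780), 0.57 against Tet2+/- (SE 0.67, adjusted p = 0.753) and 1.68 against Ins2Akita/+ (SE 0.79, adjusted p = 0.792). None of these passed 0.05, which does not show that the groups are alike.

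Fosb (ENSMUSG00000003545.3, chromosome 7, 19302696 to 19310051, minus strand) encodes a second FOS-type partner. It was at 1902, 2092 and 1162 CPM in double-mutant libraries, 1351 and 1313 CPM in Ins2Akita/+ libraries, 1884, 1031 and 1019 CPM in Tet2+/- libraries and 1308, 1546 and 639 CPM in WT libraries. Here number 3 was the lowest library of its group, opposite to Fos, and the double mutant overlapped every other genotype. The log2 differences were 0.56 against WT (SE 0.38, adjusted p = 0.791), 0.39 against Tet2+/- (SE 0.38, adjusted p = 0.704) and 0.37 against Ins2Akita/+ (SE 0.43, adjusted p = 0.955).

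Per kilobase, Fosb exceeded Fos in all 8 libraries numbered 1 or 2, and Fos exceeded Fosb in all 3 libraries numbered 3. The ratio of Fosb to Fos was 2.67, 2.24 and 0.382 in double-mutant libraries, 2.50 and 3.04 in Ins2Akita/+ libraries, 2.97, 1.95 and 0.513 in Tet2+/- libraries and 2.70, 2.83 and 0.502 in WT libraries. The balance of the FOS subunits therefore followed the library number in these data, with the genotypes overlapping.

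Of the JUN subunits, Jun (ENSMUSG00000052684.4, chromosome 4, 95049034 to 95052222, minus strand, 1 exon block), whose protein drives AP-1 transcription after phosphorylation by JNK, was at 1202, 1827 and 2689 CPM in double-mutant libraries, 715 and 713 CPM in Ins2Akita/+ libraries, 852, 575 and 1531 CPM in Tet2+/- libraries and 709, 827 and 1395 CPM in WT libraries. The lowest double-mutant library lay above 6 of the 8 other libraries, the exceptions being number 3 of Tet2+/- and of WT. The log2 difference was 0.96 against WT (SE 0.42, adjusted p = 0.543 in edgeR's test over all genes), 0.95 against Tet2+/- (SE 0.42, adjusted p = 0.455) and 1.42 against Ins2Akita/+ (SE 0.49, adjusted p = 0.591). Within a library number, Jun in the double mutant was 1.70, 2.21 and 1.93 times WT in numbers 1, 2 and 3, and 1.41, 3.18 and 1.76 times Tet2+/-. With the library number as a block, Jun rose in the double mutant against Tet2+/- by 0.98 (SE 0.21, edgeR adjusted p = 0.0388), and without the number 3 libraries by 1.08 (SE 0.25, adjusted p = 0.0368). The blocked call was lost when the Ins2Akita/+ libraries, for which pairing by number was not shown, were left out of the fit (0.99, adjusted p = 0.0620). Against WT the blocked value was 0.97 (SE 0.21, adjusted p = 0.0551).

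Jun shares 232 exonic bases with the antisense gene Junos on the other strand, and whether the counting used strand is not given in the sources used here. Junos was at 4.06, 5.77 and 2.16 CPM in double-mutant libraries, 2.30 and 2.69 CPM in Ins2Akita/+ libraries, 2.09, 0.712 and 0.580 CPM in Tet2+/- libraries and 2.27, 2.54 and 0.907 CPM in WT libraries. It stayed far below Jun in every library, and with the block it too was higher in the double mutant than in Tet2+/-, by 1.83 (adjusted p = 0.0410).

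Junb (ENSMUSG00000052837.6, chromosome 8, 84974484 to 84978718, minus strand), a JUN relative that can hold JUN activity in check and restrains growth of myeloid progenitors in mice, had the tightest values. It was at 663, 716 and 1067 CPM in double-mutant libraries, 528 and 467 CPM in Ins2Akita/+ libraries, 657, 708 and 656 CPM in Tet2+/- libraries and 546, 626 and 568 CPM in WT libraries. Every double-mutant library and every Tet2+/- library lay above every WT library, and both Ins2Akita/+ libraries lay below every WT library. The log2 differences were 0.49 for double mutant against WT (SE 0.21, adjusted p = 0.536) and 0.71 against Ins2Akita/+ (SE 0.24, adjusted p = 0.575). They were 0.22 for Tet2+/- against WT (SE 0.21, adjusted p = 0.9999) and -0.22 for Ins2Akita/+ against WT (SE 0.24, adjusted p = 1). Junb shares 173 exonic bases with Prdx2, a peroxiredoxin abundant in red cells, on the other strand. Prdx2 was at 199, 125 and 380 CPM in double-mutant libraries and 346, 193 and 736 CPM in WT libraries. It was at 228, 352 and 1184 CPM in Tet2+/- libraries and 184 and 351 CPM in Ins2Akita/+ libraries. Within each number Prdx2 was lower in the double mutant than in WT, and Junb was higher. Whether reads of Prdx2 entered the Junb counts was not tested.

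Jund (ENSMUSG00000071076.6, chromosome 8, 70698949 to 70700616, plus strand), the most constitutively expressed JUN in most tissues, was at 809, 664 and 558 CPM in double-mutant libraries, 571 and 619 CPM in Ins2Akita/+ libraries, 648, 933 and 356 CPM in Tet2+/- libraries and 756, 688 and 334 CPM in WT libraries. Its groups overlapped throughout, and number 3 was low in each. The log2 difference of double mutant against WT was 0.19 (SE 0.38, adjusted p = 0.944), the smallest of the 10 genes. Jund overlaps the antisense gene Gm11175 over 877 exonic bases, which held 0.665 to 3.12 CPM.

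The ratio of Jund to Jun per kilobase was 1.29, 0.695 and 0.396 in double-mutant libraries, 1.53 and 1.66 in Ins2Akita/+ libraries, 1.45, 3.10 and 0.445 in Tet2+/- libraries and 2.04, 1.59 and 0.458 in WT libraries. Within each number it was lowest in the double mutant. Jun exceeded Jund in number 3 of all 3 genotypes that had one and, among the libraries numbered 1 or 2, in double-mutant library 2 only.

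Egr1 (ENSMUSG00000038418.7, chromosome 18, 34859823 to 34864984, plus strand) encodes a zinc-finger factor that keeps blood stem cells quiet in mice and favours macrophage fate. It was at 258, 334 and 1234 CPM in double-mutant libraries, 162 and 161 CPM in Ins2Akita/+ libraries, 194, 127 and 548 CPM in Tet2+/- libraries and 155, 172 and 683 CPM in WT libraries. It had the widest range of the 10 genes, 9.74-fold between the lowest and the highest library, and number 3 was far above the others in each group. Without regard to number, the log2 differences were 0.85 against WT (SE 0.79, adjusted p = 0.855), 1.07 against Tet2+/- (SE 0.79, adjusted p = 0.627) and 1.91 against Ins2Akita/+ (SE 0.94, adjusted p = 0.802). Within a number, Egr1 in the double mutant was 1.67, 1.94 and 1.81 times WT and 1.33, 2.64 and 2.25 times Tet2+/-. With the block, Egr1 rose in the double mutant against Tet2+/- by 0.98 (SE 0.19, edgeR adjusted p = 0.0288), and without the number 3 libraries by 0.88 (SE 0.21, adjusted p = 0.0428). This blocked call too was lost without the Ins2Akita/+ libraries (0.99, adjusted p = 0.0522). Against WT the blocked value was 0.86 (SE 0.19, adjusted p = 0.0571).

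Klf6 (ENSMUSG00000000078.6, chromosome 13, 5861482 to 5870394, plus strand), a Krüppel-like factor of inflammatory myeloid cells, was at 1004, 1497 and 825 CPM in double-mutant libraries, 813 and 764 CPM in Ins2Akita/+ libraries, 1069, 640 and 281 CPM in Tet2+/- libraries and 696, 824 and 319 CPM in WT libraries. The lowest double-mutant library, 825 CPM, was just above the highest WT library, 824 CPM, so the groups were barely apart. The log2 difference was 0.85 against WT (SE 0.48, adjusted p = 0.722) and 0.74 against Tet2+/- (SE 0.48, adjusted p = 0.597). Within a number, double mutant over WT was 1.44, 1.82 and 2.58.

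Ier2 (ENSMUSG00000053560.4, chromosome 8, 84661331 to 84662852, minus strand, 1 exon block), a small nuclear regulator induced with the AP-1 genes, was at 550, 595 and 952 CPM in double-mutant libraries, 399 and 392 CPM in Ins2Akita/+ libraries, 429, 511 and 331 CPM in Tet2+/- libraries and 437, 465 and 386 CPM in WT libraries. It was the only member whose double-mutant libraries all lay above every library of all 3 other genotypes. Against WT, Tet2+/- and Ins2Akita/+ taken singly, 9.55%, 8.48% and 16.6% of all genes lay so. The share of all genes that did so against all 3 was not counted. The log2 differences were 0.70 against WT (SE 0.25, adjusted p = 0.407), 0.72 against Tet2+/- (SE 0.25, adjusted p = 0.321) and 0.82 against Ins2Akita/+ (SE 0.29, adjusted p = 0.596), none past the threshold after adjustment. Without the number 3 libraries they came to 0.35 against WT (adjusted p = 0.215) and 0.28 against Tet2+/- (adjusted p = 0.244).

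The feedback inhibitors, like Fos, were highest in number 3. Dusp1 (ENSMUSG00000024190.6, chromosome 17, 26505590 to 26562128, minus strand) was at 110, 144 and 608 CPM in double-mutant libraries, 88.0 and 92.8 CPM in Ins2Akita/+ libraries, 110, 105 and 365 CPM in Tet2+/- libraries and 105, 105 and 214 CPM in WT libraries. Libraries 1 and 2 of WT and Tet2+/- were alike, double-mutant library 1 was level with them, and both Ins2Akita/+ libraries lay below every WT library. The log2 difference of double mutant against WT was 1.02 (SE 0.70, adjusted p = 0.792), and it came to 0.67 (adjusted p = 0.170) with the block and 0.28 (adjusted p = 0.338) without the number 3 libraries.

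Zfp36 (ENSMUSG00000044786.6, chromosome 7, 28376784 to 28380253, minus strand) was at 341, 472 and 1374 CPM in double-mutant libraries, 311 and 276 CPM in Ins2Akita/+ libraries, 379, 405 and 683 CPM in Tet2+/- libraries and 304, 333 and 704 CPM in WT libraries. The double mutant overlapped Tet2+/- and WT and lay above Ins2Akita/+. The log2 differences were 0.71 against WT (SE 0.53, adjusted p = 0.816), 0.58 against Tet2+/- (SE 0.53, adjusted p = 0.689) and 1.31 against Ins2Akita/+ (SE 0.61, adjusted p = 0.791). Both inhibitors have small overlaps with genes on the other strand, Dusp1 with Ergic1 over 11 exonic bases and Zfp36 with Gm44710 over 125.

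For the pair of mutant alleles together against WT, 0 of 10 genes passed the test, where 0.0448% of all genes did. At an unadjusted p under 0.05 there were 3 (edgeR), Jun, Junb and Ier2, where 8.79% of all genes were. The median log2 difference of the 10 genes was 0.78, beside -0.05 over all genes tested. For 3 genes, Junb, Klf6 and Ier2, every double-mutant library lay above every WT library, a pattern shown in this direction by 9.55% of all genes. With numbers 1 and 2 alone this held for 9 of the 10, all but Jund, against 27.8% of all genes. Within each of the 3 library numbers, 9 of 10 genes were higher in the double mutant than in WT, the exception being Jund in number 2 at 0.964 times WT, where 22.2% of all genes were higher in every number. With the library number as a block 0 of 10 passed, where 1.63% of all genes did, and without the number 3 libraries 0 of 10, where 3.44% did. DESeq2 and limma voom also called 0 of 10, where they called 2.61% and 0.0832% of all genes. Leaving out double-mutant library 3 while WT library 3 stayed in, the unpaired log2 difference was -0.18 for Egr1, -0.15 for Dusp1 and -0.13 for Zfp36. Within numbers 1 and 2 these genes were at 1.67 and 1.94 times WT (Egr1), 1.05 and 1.37 times (Dusp1) and 1.12 and 1.42 times (Zfp36). Without WT library 3 the log2 difference of Jund was -0.09.

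For the Akita allele on the Tet2+/- background, double mutant against Tet2+/-, 0 of 10 genes passed, where 0.262% of all genes did, and 2, Jun and Ier2, were under 0.05 unadjusted, where 10.9% of all genes were. The median log2 difference was 0.57, beside -0.08 over all genes. Only Ier2 had groups that did not overlap, where 8.48% of all genes did in this direction. Within every number 7 of 10 genes were higher in the double mutant (20.0% of all genes), the exceptions being Jund in number 2 at 0.712 times Tet2+/- and Klf6 and Zfp36 in number 1 at 0.939 and 0.900 times. The block called 2 of 10 higher, Jun and Egr1, where it called 2.83% of all genes higher and 4.50% in either direction. Leaving out the number 3 libraries called the same 2 genes, where 3.88% of all genes were called higher and 7.71% in either direction. In that fit 3 of 12 heat shock genes, a sign of stress and handling, were also called higher, and their part in these calls was not tested. The block without the Ins2Akita/+ libraries called 0 of 10, where 2.80% of all genes passed. DESeq2 and limma voom called 0 of 10, where they called 3.45% and 0.205% of all genes. Leaving out double-mutant library 3 while Tet2+/- library 3 stayed in, the unpaired log2 difference was -0.35 for Fos, -0.60 for Dusp1 and -0.26 for Zfp36. Within numbers 1 and 2 Fos was at 1.12 and 1.77 times Tet2+/-, Dusp1 at 1.002 and 1.37 times and Zfp36 at 0.900 and 1.16 times. Jund was at -0.22 without Tet2+/- library 3 and at -0.10 without the number 3 libraries. With numbers 1 and 2 alone the groups did not overlap for 6 of 10 genes, against 26.9% of all genes.

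**Figure D2:**
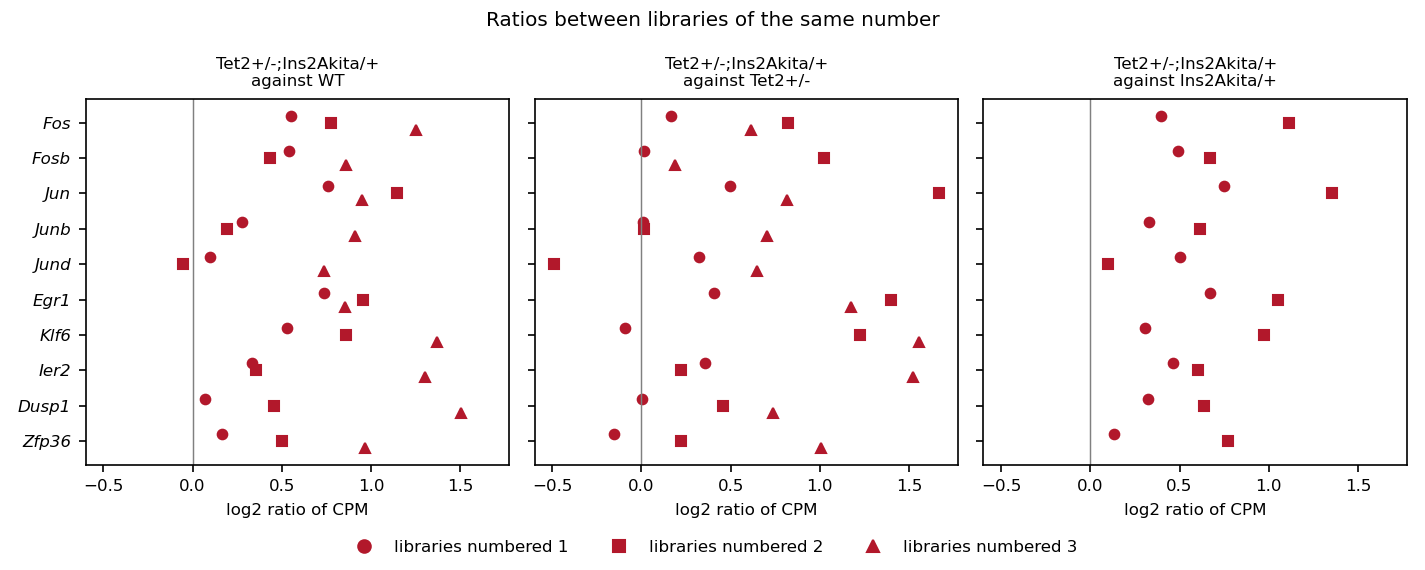
The log2 ratio of CPM between libraries of the same number for each gene, in 3 panels for the double mutant against WT, Tet2+/- and Ins2Akita/+, with marker shape for the number. Against WT all points but Jund in number 2 lie right of 0, and Egr1 lies at 1.67, 1.94 and 1.81 times WT.

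For the Tet2 label on the Akita background, double mutant against Ins2Akita/+, 0 of 10 genes passed, where 0.0384% of all genes did, and 3, Jun, Junb and Ier2, were under 0.05 unadjusted, where 6.60% of all genes were. The median log2 difference was 1.07, beside 0.01 over all genes. DESeq2 and limma voom called 0 of 10, where they called 1.21% and 0.0192% of all genes. Groups did not overlap for 8 of 10 genes, all but Fosb and Jund, where 16.6% of all genes were so in this direction. Ins2Akita/+ has no library numbered 3, and number 3 of the double mutant was the highest for 7 of the 10 genes, so the 2 groups differ in that number as well as in genotype. Over numbers 1 and 2 without matching, the groups did not overlap for 10 of 10 genes, as for 27.5% of all genes in this direction. Matched by number, which is an assumption for Ins2Akita/+, all 10 genes were higher in the double mutant in both numbers, where 31.7% of all genes were. The folds there were 1.68 and 2.56 for Jun, 1.59 and 2.07 for Egr1, 1.32 and 2.17 for Fos, 1.24 and 1.96 for Klf6 and 1.38 and 1.52 for Ier2. Without the number 3 libraries 0 of 10 passed, where 2.89% of all genes did, and the median log2 difference came to 0.56, with an adjusted p of 0.0593 for Jun and 0.0685 for Fos and Egr1. With the block 0 of 10 passed, where 0.115% of all genes did, and the log2 differences came to 0.84 for Fos, 0.91 for Egr1, 0.69 for Dusp1 and 0.65 for Zfp36.

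The fitted differences for either allele alone lay on both sides of 0. For Tet2+/- against WT, 0 of 10 genes passed, where 0.0256% of all genes did, and log2 differences ran from -0.22 for Egr1 (SE 0.78) to 0.45 for Fos (SE 0.67) and Dusp1 (SE 0.69). Their median was 0.13, beside 0.03 over all genes. Junb alone had groups that did not overlap (2.07% of all genes), and 2 of 10 genes, Junb and Dusp1, were higher within every number (12.4% of all genes). For Ins2Akita/+ against WT, 0 of 10 passed, where 0.00% of all genes did, and log2 differences ran from -1.06 for Egr1 (SE 0.90) to 0.36 for Klf6 (SE 0.53), with a median of -0.34, beside -0.01 over all genes. Ins2Akita/+ has no library numbered 3, while WT has. The median came to -0.06 with the library number as a block and to -0.11 without the libraries numbered 3. Junb and Dusp1 had groups that did not overlap, with Ins2Akita/+ lower (6.86% of all genes). In the same-numbered libraries 4 genes, Junb, Jund, Ier2 and Dusp1, were lower in Ins2Akita/+ both times (19.4% of all genes), and the folds of all 10 genes lay between 0.746 and 1.17. Over numbers 1 and 2 without matching, the groups of 4 of 10 genes did not overlap, with Ins2Akita/+ lower (13.6% of all genes). In neither comparison was 1 of the 10 under 0.05 unadjusted, where 2.12% of all genes were for Tet2+/- and 0.429% for Ins2Akita/+, and DESeq2 called 0 of 10 in both, where it called 0.288% of all genes for Tet2+/- and 0.00% for Ins2Akita/+.

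The interaction asks whether the difference made by the Akita allele was larger with Tet2+/- than without, that is double mutant less Tet2+/-, less the difference of Ins2Akita/+ and WT. Its estimate was above 0 for all 10 genes, from 0.06 for Jund (SE 0.57) to 2.13 for Egr1 (SE 1.20), with a median of 1.01, beside -0.02 over all genes. No gene passed, here or among all genes (0.00%). None of the 10 was under 0.05 unadjusted either, where 3.44% of all genes were, and DESeq2 called 0 of 10, where it called 0.435% of all genes. The estimates farthest from 0 in units of their error were 0.84 for Ier2 (SE 0.38) and 1.40 for Jun (SE 0.64). With the library number as a block the median was 0.48 and 0 of 10 passed, where 0.0192% of all genes did, and in that fit Jun was at 1.06 (SE 0.32, adjusted p = 0.393) and Egr1 at 1.03 (SE 0.29, adjusted p = 0.378).

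**Figure D3:**
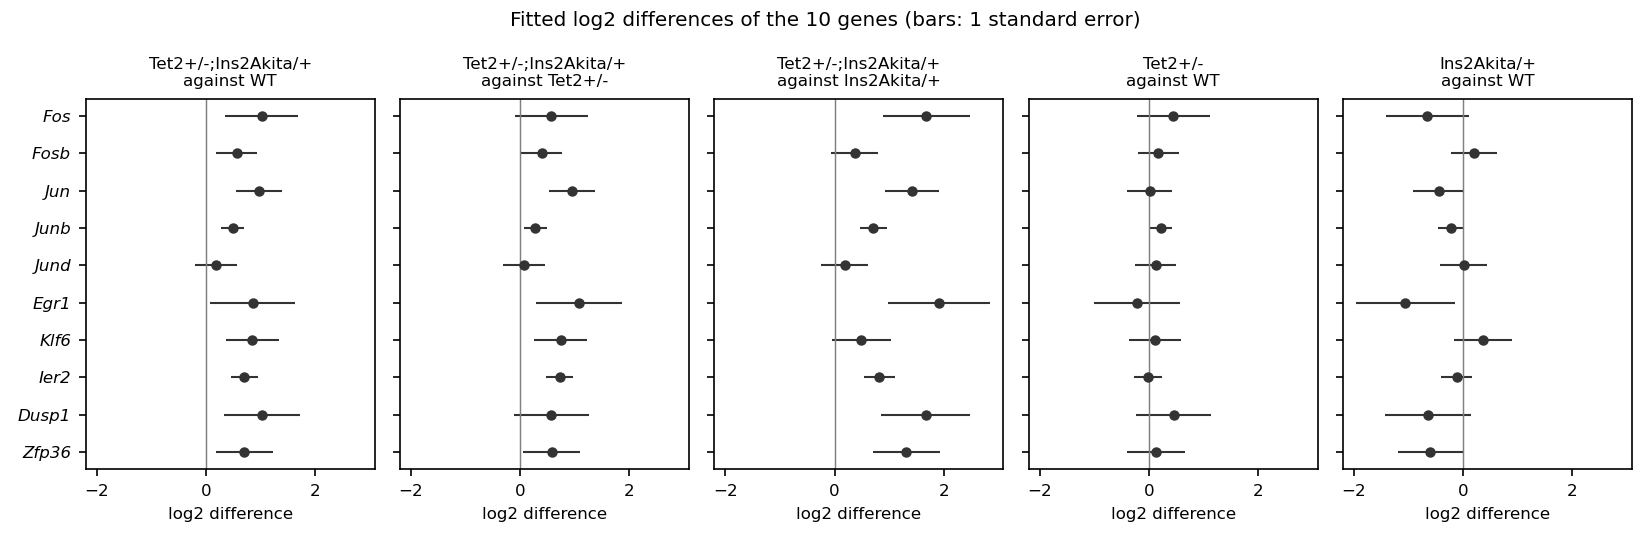
Fitted log2 differences of the 10 genes in the 5 comparisons between genotypes, 1 panel each, with bars of 1 standard error and a line at 0. In the 3 panels with the double mutant all points lie above 0, from 0.07 (Jund against Tet2+/-) to 1.91 (Egr1 against Ins2Akita/+), while in the panels for Tet2+/- and for Ins2Akita/+ against WT they lie on both sides.

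The 10 genes differed in how they stood in number 3. Fos, Egr1, Dusp1, Zfp36 and Jun were higher in number 3 than in numbers 1 and 2 in all 3 genotypes that had a number 3, where 25.5% of all genes were. Egr1 in number 3 was 4.17, 3.41 and 4.18 times the mean of numbers 1 and 2 in the double mutant, Tet2+/- and WT. The same ratios were 3.69, 3.42 and 2.47 for Fos and 4.78, 3.39 and 2.04 for Dusp1. Zfp36 and Jun had smaller ratios, 3.38, 1.74 and 2.21 for Zfp36 and 1.78, 2.14 and 1.82 for Jun.

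Fosb, Klf6 and Jund were lower in number 3 in all 3 genotypes, where 25.4% of all genes were. Klf6 was at 0.660, 0.329 and 0.420 times the mean of numbers 1 and 2 in the double mutant, Tet2+/- and WT. Jund was at 0.757, 0.450 and 0.463 times that mean, and Fosb at 0.582, 0.699 and 0.448 times. Junb and Ier2 were higher in number 3 of the double mutant alone, at 1.55 and 1.66 times the other 2 libraries, and at 0.962 and 0.705 times in Tet2+/- and 0.970 and 0.855 times in WT. Erythroid markers (11 genes, none at 0) summed to 2736, 8544 and 5175 CPM in number 3 of the double mutant, Tet2+/- and WT, and to 651 to 2807 CPM in the other libraries. Maturing neutrophil markers were low in number 3 of Tet2+/- and WT and high in that of the double mutant. Primary granule markers (5 genes) summed to 7281, 604 and 1508 CPM in number 3 of the double mutant, Tet2+/- and WT. They summed to 7830 to 13584 CPM in the other libraries. In the same order, basophil, mast cell and eosinophil markers (7 genes) summed to 5994, 878 and 3335 CPM, against 844 to 2876 CPM elsewhere. Megakaryocyte and platelet markers (7 genes) summed to 536, 143 and 308 CPM, against 181 to 242 CPM. The part of this makeup, of the mitochondrial share and of whatever the number marks was not tested.

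**Figure D4:**
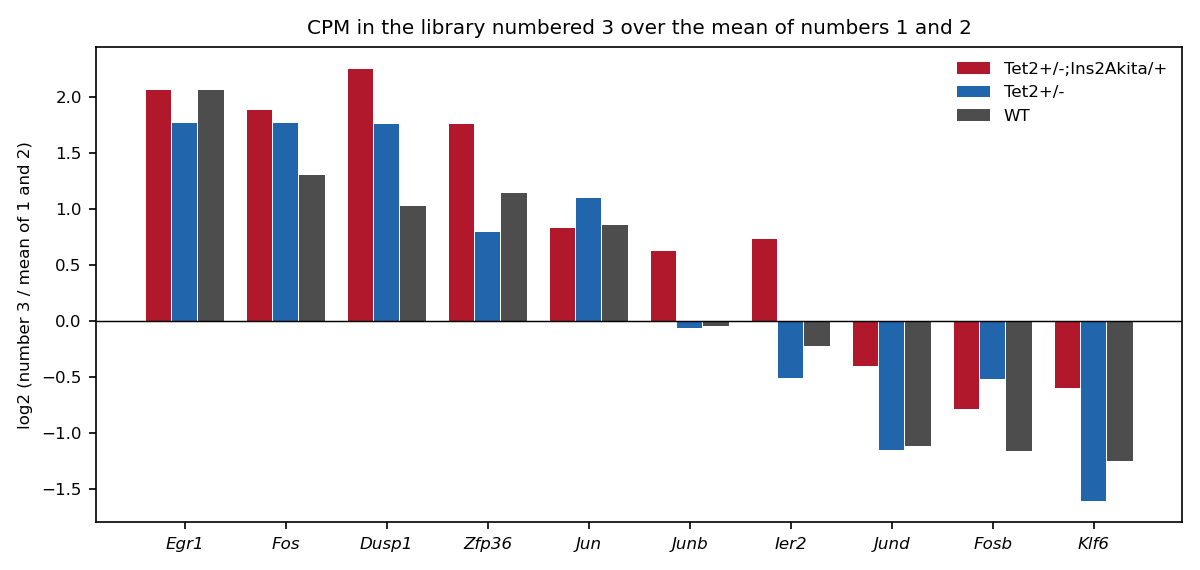
Log2 of the CPM in the library numbered 3 over the mean of numbers 1 and 2 for each gene, with a bar for each of the 3 genotypes that had a number 3. Egr1, Fos, Dusp1, Zfp36 and Jun stand above 0 in all 3, Jund, Fosb and Klf6 below 0 in all 3, and Junb and Ier2 above 0 in the double mutant alone, at 1.55 and 1.66 times.

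By level per kilobase, Jund, Jun, Ier2 and Junb led in WT, at 355 ± 136, 306 ± 115, 282 ± 26.5 and 252 ± 18.1 CPM per kb (SD, n = 3 each). Fosb, Klf6, Zfp36 and Fos followed at 187 ± 75.3, 140 ± 59.8, 129 ± 64.3 and 123 ± 70.3 CPM per kb, then Egr1 at 75.1 ± 66.9 and Dusp1 at 42.7 ± 19.1. Neighbours in this order differed by less than the larger of their SDs, except Ier2 and Junb, whose libraries overlapped. In the double mutant the highest level was that of Jun, at 598 ± 234 CPM per kb (n = 3), followed by Ier2 at 459 ± 145, Jund at 406 ± 75.6 and Junb at 354 ± 95.5.

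Genes around the same pathway were read from lists by role. Their blocked calls were not checked in the fit without the Ins2Akita/+ libraries, in which those of Jun and Egr1 were lost. Of 14 other AP-1 and bZIP partners tested, 0 passed in any of the 6 comparisons, and their median log2 difference of double mutant against WT was 0.27, beside -0.05 over all genes. DESeq2 called 1 of them higher in that comparison, where it called 1.71% of all genes higher. With the library number as a block 2 of 14, Fosl1 and Jdp2, rose in the double mutant against Tet2+/-, where 2.83% of all genes rose. Without the number 3 libraries the same 2 passed against Tet2+/- and against WT, where 3.88% and 1.63% of all genes were called higher. Fosl1, which encodes the FOS-type subunit FRA-1, was at 22.1, 28.7 and 50.5 CPM in double-mutant libraries, 11.3 and 11.3 CPM in Ins2Akita/+ libraries, 14.0, 9.91 and 9.57 CPM in Tet2+/- libraries and 9.42, 13.3 and 11.9 CPM in WT libraries. All 3 double-mutant libraries lay above the other 8, and the blocked log2 difference against Tet2+/- was 1.53 (adjusted p = 0.0318). Against WT, Tet2+/- and Ins2Akita/+ taken singly, 9.55%, 8.48% and 16.6% of all genes lay above without overlap. The share that did so against all 3 was not counted. Jdp2, a JUN-dimerising repressor, differed by 1.57 in that fit (adjusted p = 0.0450), with 75.1, 83.8 and 38.5 CPM in double-mutant libraries and 43.2, 39.5 and 5.60 CPM in Tet2+/- libraries. The 3 most abundant of the list, Atf4, Atf3 and Fosl2, were low in number 3 of each genotype, as Fosb was: Fosl2 was at 283, 367 and 148 CPM in double-mutant libraries and 324, 374 and 65.5 CPM in WT libraries.

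Of 26 other immediate early genes, 0 passed and the median of double mutant against WT was 0.42, while DESeq2 called 3 higher there (1.71% of all genes). Without the number 3 libraries 3 were called higher and 3 lower against Tet2+/- (3.88% and 3.83% of all genes), and 2 higher and 2 lower against WT (1.63% and 1.81% of all genes). Nr4a2 and Nr4a3, orphan nuclear receptors, were among the lower in both. Rhob, which encodes a small GTPase of endosomes, was nearest, at 266, 377 and 509 CPM in double-mutant libraries, 139 and 131 CPM in Ins2Akita/+ libraries, 157, 167 and 124 CPM in Tet2+/- libraries and 140, 150 and 127 CPM in WT libraries. Every double-mutant library was above every other library, number 3 included. Taken singly, 9.55% of all genes lay so against WT, 8.48% against Tet2+/- and 16.6% against Ins2Akita/+, and the joint share was not counted. The log2 difference of Rhob was 1.47 against WT (SE 0.25, adjusted p = 0.0779) and 1.37 against Tet2+/- (SE 0.25, adjusted p = 0.0673), and with the block it rose by 1.46 (adjusted p = 0.0307) and 1.35 (adjusted p = 0.0232). Against Tet2+/- the block also called Plk3, a stress kinase, higher by 1.22 (adjusted p = 0.0300) and Sgk1, a serum-induced kinase, higher by 1.15 (adjusted p = 0.0452). Plk3 passed without the number 3 libraries too (0.97, adjusted p = 0.0390), and Sgk1 did not (0.79, adjusted p = 0.0749). The block called Nr4a2 lower, by -1.16 (adjusted p = 0.0409), with 36.6, 26.1 and 18.9 CPM in double-mutant libraries and 99.1, 87.3 and 23.9 CPM in Tet2+/- libraries. In all, it called 3 of 26 higher and 1 lower against Tet2+/-, where 2.83% and 1.67% of all genes were. Against WT it called 1 of 26 higher, where 0.921% of all genes were. The most abundant of the list were Btg1, Ppp1r15a and Nr4a1, of which Ppp1r15a, a stress phosphatase subunit, was high in number 3 like Fos: it was at 234, 267 and 804 CPM in double-mutant libraries and 203, 196 and 474 CPM in WT libraries.

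**Figure D5:**
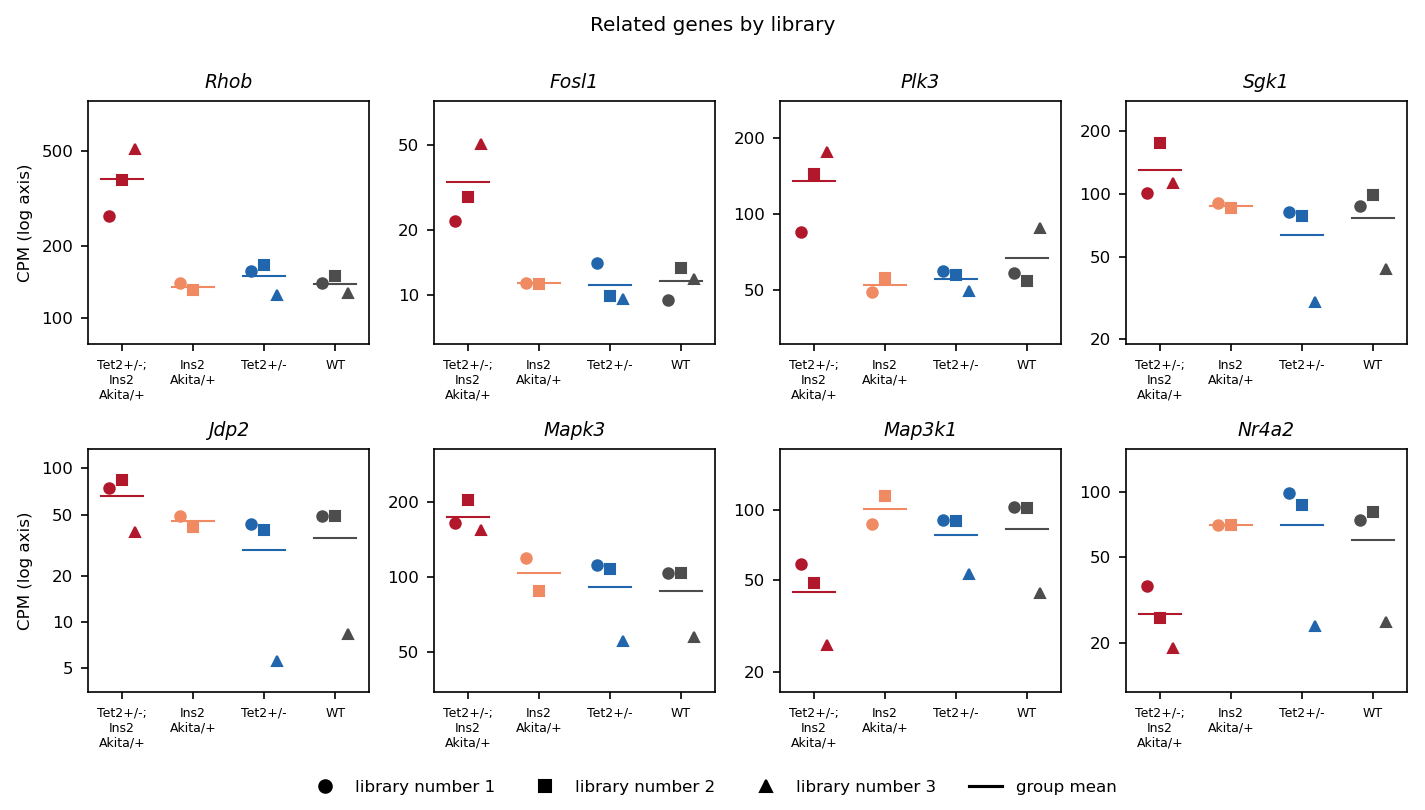
CPM by library on a log axis for 8 related genes called in the fit with the library number as a block, drawn as in the plot of the 10 genes. Rhob at 266 to 509 CPM and Fosl1 at 22.1 to 50.5 CPM in the double mutant lie above every other library, and Map3k1 and Nr4a2 are lowest in the double mutant within each number. The shares of all genes with these patterns were not counted.

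Of 22 upstream MAP kinases and serum response factors, 0 passed, and the median of double mutant against WT was 0.03. With the block, Mapk3, which encodes the kinase ERK1 upstream of the serum response, rose in the double mutant by 1.04 against WT (adjusted p = 0.0432) and 1.002 against Tet2+/- (adjusted p = 0.0298), and Map3k1, an activator of the JNK cascade, fell by 0.87 (adjusted p = 0.0423) and by 0.84 (adjusted p = 0.0286). That fit called 0.921% of all genes higher and 0.710% lower against WT, and 2.83% higher and 1.67% lower against Tet2+/-. Mapk3 was at 165, 203 and 154 CPM in double-mutant libraries and 104, 104 and 57.3 CPM in WT libraries. Map3k1 was at 58.6, 48.5 and 26.3 CPM in double-mutant libraries and 103, 102 and 43.9 CPM in WT libraries. Mapk14 and Map2k3, among the most abundant of the list, overlapped between these groups. Of 11 other MAP kinase phosphatases and ZFP36 relatives, 0 passed with or without the block, and the median against WT was -0.12. Leaving out number 3, 3 were called lower against Tet2+/- (3.83% of all genes), Dusp2, Dusp5 and Dusp10, and Dusp5 alone was against WT (1.81%) and Ins2Akita/+ (1.27%). These were named after their values were seen. Dusp5, which acts on ERK in the nucleus, fell there by 1.31 against Tet2+/- (adjusted p = 0.00729) and by 1.06 against WT (adjusted p = 0.0231). Dusp6, which removes phosphate from ERK, was at 123, 190 and 134 CPM in double-mutant libraries and 92.3, 119 and 71.6 CPM in WT libraries, while Dusp5 was at 94.4, 85.5 and 94.1 CPM in double-mutant libraries, 184, 261 and 65.7 CPM in Tet2+/- libraries and 194, 181 and 112 CPM in WT libraries.

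Of 12 heat shock genes, which rise with cell stress and handling, 0 passed with or without the block, and their median was -0.20 for double mutant against WT, 0.27 against Tet2+/- and -0.41 against Ins2Akita/+, and -0.54 for Tet2+/- against WT. Without the number 3 libraries, the fit in which Jun and Egr1 passed, 3 of 12 were called higher in the double mutant than in Tet2+/- (3.88% of all genes) with a median of 0.64, and 0 of 12 against WT, with a median of -0.18, or against Ins2Akita/+, with a median of -0.22. The 3, named here after their values were seen, were Hspa1a (2.80, adjusted p = 0.0483), Hspa1b (2.68, adjusted p = 0.0423) and Dnaja1 (0.63, adjusted p = 0.0285). Hspa1a, an inducible chaperone, was at 315, 413 and 97.9 CPM in double-mutant libraries, 346 and 204 CPM in Ins2Akita/+ libraries, 80.3, 24.2 and 306 CPM in Tet2+/- libraries and 163, 433 and 111 CPM in WT libraries. Tet2+/- libraries 1 and 2 were the lowest of the 11. Hspa1a and Hspa1b are near-identical copies, so how the counting split their reads is uncertain. Hspa8, the constitutive chaperone, was at 2692, 3265 and 1506 CPM in double-mutant libraries and 2549, 3459 and 2477 CPM in WT libraries, and Hsp90aa1 overlapped between these groups too. Hsp90ab1 was at 2886, 2898 and 2680 CPM in double-mutant libraries and 2973, 3809 and 3039 CPM in WT libraries. These did not overlap, as was so for 8.57% of all genes in this direction.

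The genes most like the 10 members were found from the Pearson correlation, over the 11 libraries, of a gene's log2 CPM with the mean standardised log2 CPM of the members, among 8822 genes of at least 10 CPM outside all lists. Gadd45g, a stress-induced growth arrest gene, was among them at r = 0.947 (Spearman 0.818; 0.905 by Pearson over the 8 libraries numbered 1 or 2), with 42.4, 56.6 and 117 CPM in double-mutant libraries and 34.6, 32.3 and 27.2 CPM in WT libraries. So were Tmem19, Snapin, Mettl9, Ntpcr, Adam19 and Dhrs1, at r = 0.916 to 0.928. All of these named genes had their highest value in double-mutant library 3, and their likeness is a description over libraries that share genotype, number and depth.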

How the data were processed

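The authors deposited raw counts per gene, whole numbers without normalisation, in a single table, per the file header. The submitters' processing notes name bcl2fastq, Trimmomatic 0.32, TopHat2 2.1.1 and build GRCm38. Which program counted reads, and whether by strand, is not given in the sources used here. Symbols and coordinates came from GENCODE M21, which held 30875 of the 31060 identifiers once versions were removed. Of 12 labelled samples 11 have a column. The double-mutant library numbered 4 was left out as not analysed here, and 1 column that matches no label was not used. Libraries of a group differed by more than counting noise in every pair (chi-square per gene at least 15.6).

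The main test was edgeR 4.0.16 (R 4.3.3) on all 4 groups in a single fit: filterByExpr, TMM, glmQLFit with robust=TRUE, glmQLFTest, and Benjamini-Hochberg adjustment over the 15630 genes kept, with a threshold of 0.05. A standard error is the log2 difference over the square root of F. The fit was checked on simulated counts that held no effect of the library number and changes larger than those of the members. That check does not show how the tests behave with the libraries numbered 3. Comparisons share libraries, so their values are not independent of each other. Alternatives were RLE factors, no filter, a mean of at least 5 CPM, DESeq2 1.42.0, limma 3.58.1 (voom), the library number as a block, only the groups compared, robust=FALSE, no libraries numbered 3, and each library left out. The block without the Ins2Akita/+ libraries, and the alternatives for counts of groups that do not overlap, were added after seeing the data.

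The labels number the replicates without saying what a number marks. Same-numbered libraries deviated from their group means together among the double mutant, Tet2+/- and WT (correlations 0.318 to 0.791, over 0.1 in every pair), which was taken as pairing these 3 groups. In these groups number 3 shifts the group mean, so numbers 1 and 2 can deviate the same way without being paired. Correlations of Ins2Akita/+ libraries ran from -0.351 to 0.264. That group has 2 libraries, whose deviations mirror each other, so these correlations cannot show whether its numbers pair. A library of the same number was the closest for 4 of 11 libraries, the 3 numbered 3 among them, so the pairing of numbers 1 and 2 is an assumption. The members and lists were chosen with earlier results of these data known. Genes of the other lists were named where they passed in the fit or with the block, and otherwise as the 3 highest of a list by mean CPM. Junos, Prdx2 and Gm11175 were named for their overlap with members. Promoters came from RefSeq tables, in which 1 member has no entry, and that of 1 further member is not reported here, nor are some genes that the naming rules select.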

Additional observations from a re-analysis of the deposited data

How the results depend on the processing

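The count of the 10 genes that passed the test was 0 in all 6 comparisons under RLE factors, no filter, a mean of at least 5 CPM, DESeq2, limma voom, robust=FALSE, only the groups compared, and each of the 11 libraries left out. It became 2 for double mutant against Tet2+/- with the replicate block and 2 without the libraries numbered 3, where Jun and Egr1 passed; the replicate block changed no other call of a member. Some values that had passed no test turned their sign. For Tet2+/- against WT, Jun (0.014) was -0.018 with a mean of at least 5 CPM, -0.017 with the replicate block, with or without the Ins2Akita/+ libraries, -0.042 with limma voom, -0.010 with only the groups compared and -0.10 without the libraries numbered 3, where Ier2 (-0.018) was 0.061. For Ins2Akita/+ against WT, Jund was -0.0025 with RLE factors and with DESeq2, -0.011 with a mean of at least 5 CPM, -0.21 with the replicate block and -0.28 without the libraries numbered 3; Fos was 0.024 with the block and Fosb -0.10 without the libraries numbered 3. For double mutant against Tet2+/-, Jund was -0.10 without the libraries numbered 3. With a library left out, Tet2+/- against WT ran from -0.40 to 1.01 for Fos, -0.19 to 0.43 for Fosb, -0.45 to 0.35 for Jun, -0.24 to 0.42 for Jund, -1.07 to 0.81 for Egr1, -0.41 to 0.48 for Klf6, -0.17 to 0.13 for Ier2, -0.40 to 0.87 for Dusp1 and -0.19 to 0.61 for Zfp36. Ins2Akita/+ against WT ran from -0.11 to 0.45 for Fosb and -0.29 to 0.22 for Jund. Double mutant against WT ran from -0.091 to 0.41 for Jund, -0.18 to 1.90 for Egr1, -0.15 to 1.46 for Dusp1 and -0.13 to 1.20 for Zfp36, and against Tet2+/- from -0.35 to 1.43 for Fos, -0.22 to 0.43 for Jund, -0.60 to 1.42 for Dusp1 and -0.26 to 0.92 for Zfp36. The interaction ran from -0.063 to 0.57 for Fosb and -0.23 to 0.42 for Jund. The median log2 difference of double mutant against WT (0.78) was 0.42 without the libraries numbered 3 and 0.28 to 0.98 with a library left out, the lowest without double-mutant library 3. Against Tet2+/- (0.57) it was 0.11 to 0.89 with a library left out, again lowest without double-mutant library 3 and highest without double-mutant library 1. Against Ins2Akita/+ (1.07) it was 0.75 with the replicate block, 0.56 without the libraries numbered 3 and 0.56 to 1.31 with a library left out. The interaction median (1.01) was 0.48 with the replicate block, 0.49 without the libraries numbered 3 and 0.38 to 1.25 with a library left out. The count of genes whose groups did not overlap was 9 against WT and 6 against Tet2+/- without the libraries numbered 3 (27.8% and 26.9% of all genes). With a library left out it was 3 to 8 against WT, highest without WT library 3 (16.9% of all genes; 11.5% to 19.1% over the libraries left out), and 1 to 5 against Tet2+/-, highest without Tet2+/- library 3 (10.3% to 18.6% of all genes over the libraries left out). The cause of these shifts was not tested. Groups hold 2 or 3 libraries. A floor of 3 counts corresponds to at most 0.190 CPM, below every value of the 10 genes.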
